A study of Mus musculus with 6 samples.

Results

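The genes described here are 9 receptors for chemokines, the small secreted proteins that direct leukocyte movement. They were chosen by gene symbol: the conventional receptors Cx3cr1, Ccr1, Ccr2, Ccr6, Ccr9 and Cxcr4 and the atypical receptors Ackr2, Ackr3 and Ackr4. All 9 were found among the 26110 genes listed in the deposited RNA-seq table. The study sorted MHCII hi cells from the muscularis externa, the muscle coat, of the small bowel of naive, untreated mice. In these mice 1 allele of Cx3cr1 carried the reporter GFP (genotype CX3CR1+/GFP), so that the Cx3cr1 promoter drove the fluorescence used for sorting. Cells without the reporter signal (CX3CR1-) gave 3 libraries, labelled Sample_2041, Sample_2043 and Sample_2047, and cells with it (CX3CR1+) gave 3, labelled Sample_2040, Sample_2044 and Sample_2046. Both groups therefore carried the same reporter allele and came from the same kind of untreated, female mouse on a C57BL/6 background. Their age is not given in the sources used here. Muscularis from several mice per group was pooled, and nothing states whether each library had a pool of its own, so p-values here measure the spread between libraries, which may be technical.

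A conventional chemokine receptor spans the membrane several times and, when a chemokine binds, activates an inhibitory G protein that steers the cell along the chemokine gradient. An atypical receptor binds chemokines without that G-protein signal and instead takes them up or holds them, which shapes the gradient other cells read. In the gut wall, CX3CR1 is known as a marker of resident macrophages, CCR2 as the receptor with which monocytes leave the bone marrow, CCR9 as a gut-homing receptor and CCR6 as a receptor of B cells and some dendritic cells.

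The part of the coding sequence where the classes are known to differ follows the DRY motif, at the inner end of a membrane-spanning helix, through which conventional receptors engage the G protein. The stretches below are printed because they show this difference between the 9 genes. Each is 7 codons from a GENCODE M21 coding transcript (GRCm38), 5′ to 3′ on the gene's own strand, starting at the first codon of the motif. Capitals mark the codons that encode another residue than most of the 6 conventional receptors do at that place.
Cx3cr1: gaccggtaccttgccatcgtc
Ccr1: gacagatacctggccattgtc
Ccr2: gataggtacttggctattgtt
Ccr6: gaccggtacATTgccatcgtc
Ccr9: gacagatacATTgccattgta
Cxcr4: gaccggtacctcgctattgtc
Ackr2: gacAAAtacctgGAGattgtc
Ackr3: gaccgctatctcTCCatcACC
Ackr4: gacagatatTGGgcaattACC
All 6 conventional receptors encode the DRY motif here, and they have 0 or 1 codon in capitals. The 3 atypical receptors have 2 each, and in Ackr2 the motif itself is altered, whereas Ackr3 and Ackr4 keep it. The comparison residues come from the conventional receptors alone, so their lower count is partly built in. Over the whole protein the closest pair was Ccr1 and Ccr2, which shared 55.1% of aligned residues, whereas Ccr6 and the atypical receptor Ackr4 shared 40.3%.

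Values are the deposited normalized expression values, which are not counts. A value that 3 reads would give lay between 1.39 and 5.36 in the 6 libraries, whose approximate totals ran from 5346372 to 17616723 reads. Mitochondrial genes took 47.5–54.9% of the summed values in the CX3CR1- libraries and 18.1–21.2% in the CX3CR1+ libraries. The labels call the sorted cells dendritic cells and the study calls them macrophages. By staining, the study found the macrophage protein IBA-1 in all MHCII+ cells, those without CX3CR1 included. Its flow cytometry found the myeloid protein CD11b on most CX3CR1- cells, and the dendritic cell proteins CD11c and CD103 on very few. The study also reports dendritic cell genes among those that differed most in its RNA-seq. All 9 tested macrophage markers were called lower in the CX3CR1- libraries (summed value 7645–8530 against 37514–42177), and all 8 tested conventional dendritic cell markers were called higher (3635–4076 against 276–329). Markers of cells outside the labelled type also moved with the group: summed values were 924–1255 against 113–132 for B cells, 5258–16011 against 209–364 for fibroblasts and 15651–26675 against 31.3–51.8 for epithelium, of which 6 of 7, 7 of 7 and 6 of 6 tested markers were called higher. In bulk samples such as these, fewer cells of a type and less RNA per cell cannot be told apart, and the part of these other cell types in the receptor differences was not tested. The sort of these libraries is described by MHCII and the reporter. A gate on the leukocyte protein CD45, which the study used in its flow cytometry but does not state for this sort, would remove fibroblasts, epithelium and endothelium.

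Cx3cr1, the receptor for the membrane-bound chemokine CX3CL1, lies at chromosome 9:119901616-120069879 and is the gene of the sort gate. Its value was 23.2, 18.9 and 28.5 in the CX3CR1- libraries and 371, 380 and 347 in the CX3CR1+ libraries. The groups were thus far apart in the direction of the gate, with means of 23.6 ± 4.80 and 366 ± 17.5 (SD, n = 3 each) and a ratio of 15.5, and the low group was not at 0. Because cells were sorted on this locus, the difference is a description of the sort and has no test.

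Differences for the other members were tested with limma on log2(value + 1), with Benjamini-Hochberg adjustment over the 17812 genes whose mean value was at least 10. Genes with at least a 2-fold difference and an adjusted p no greater than 0.05 were called higher or lower, the direction always being that of the CX3CR1- cells. Of the 8 members other than Cx3cr1, 7 were tested: Ccr2, Ccr6, Ackr3 and Ackr4 were called higher, Cxcr4 was called lower, and Ccr1 and Ccr9 were not called. Among all tested genes, 12.2% were called higher and 8.15% lower. Ccr6 and Ackr3 reached the mean of 10 only through their CX3CR1- values, so the 4 higher calls are a description of the members and not support for a direction of the family. Over the other 5 tested members the median log2 difference was 0.61, beside -0.00349 over all tested genes. None of the 7 had overlapping groups: 5 had every CX3CR1- library above every CX3CR1+ library, which was the case for 20.3% of tested genes, and 2 had the reverse, the case for 19.8%. For a single gene, 3 libraries against 3 cannot give an exact permutation p below 0.1.

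**Figure D1:**
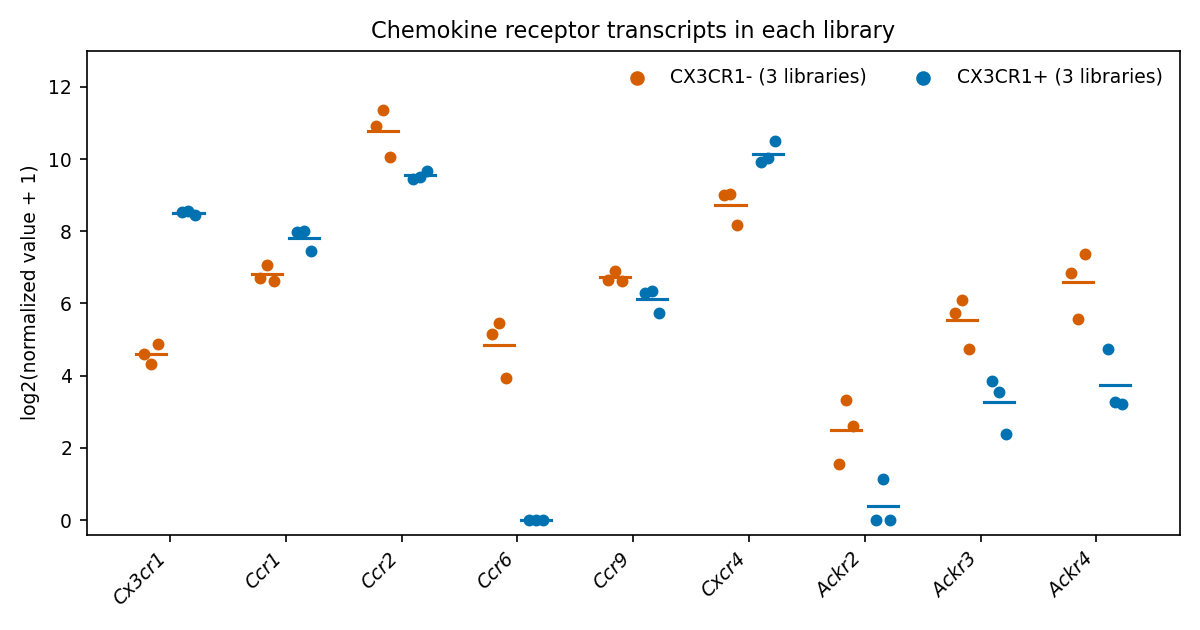
Normalized value of each of the 9 receptors in each library as log2(value + 1), with the 3 CX3CR1- libraries (orange) left and the 3 CX3CR1+ libraries (blue) right; horizontal bars are means of the log2 values. For the 7 tested members and Cx3cr1 the groups do not overlap, and Ccr6 is at 0 in all 3 CX3CR1+ libraries.

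Among the conventional receptors, Ccr2 (chromosome 9:124101950-124113557), the receptor for the monocyte attractants CCL2, CCL7 and CCL12, was higher in CX3CR1- cells. Its values were 1933, 2619 and 1071 in the CX3CR1- libraries and 704, 731 and 817 in the CX3CR1+ libraries. All CX3CR1- libraries were above all CX3CR1+ libraries, but library Sample_2047 was much nearer to them than the other two. The means were 1874 ± 776 (SD, n = 3) and 750.6 ± 59.0 (SD, n = 3), a 2.50-fold ratio, and the log2 difference was 1.23 (SE 0.28, adjusted p = 0.010004, limma). The difference rests in part on library Sample_2043: without it the log2 difference was 0.94 (adjusted p = 0.0239), short of 2-fold. The 6 monocyte markers tested gave 3 higher and 1 lower call, with summed values of 1601–2153 and 1609–1823 that overlapped between the groups.

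Ccr6, the receptor for CCL20, lies at chromosome 17:8236043-8257141. It had values of 34.7, 43.2 and 14.2 in the CX3CR1- libraries and was listed at 0 in all 3 CX3CR1+ libraries. The positive values correspond to about 33.2, 24.1 and 14.2 reads, so the gene was scarce where it was found. Against the mean of the levels that 3 reads would give in the CX3CR1+ libraries, 2.70, the CX3CR1- mean of 30.7 ± 14.9 (SD, n = 3) was about 11.4-fold higher. That level was highest in library Sample_2046, at 4.25, against which the ratio is smaller. The call had an adjusted p of 0.00227 (limma), and the fitted log2 difference, 4.85, depends on the pseudocount and is no bound. Without library Sample_2043 the mean over the remaining libraries fell under 10 and Ccr6 was not tested. Ccr6 and the summed B cell markers had the same order among the CX3CR1- libraries, highest in Sample_2043 and lowest in Sample_2047, and the part of B cell RNA was not tested.

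Cxcr4, the conventional receptor for CXCL12, was the only member called lower in CX3CR1- cells, and it lies at chromosome 1:128588199-128592293. Its values were 512, 526 and 288 in the CX3CR1- libraries and 962, 1036 and 1460.4 in the CX3CR1+ libraries. Every CX3CR1+ library was above every CX3CR1- library. Means of 442 ± 133 and 1153 ± 269 (SD, n = 3 each) gave a log2 difference of -1.41 (SE 0.26, adjusted p = 0.00334, limma), or a 2.61-fold higher level in CX3CR1+ cells.

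Ccr1, a receptor for CCL3, CCL5 and related chemokines on monocytes and granulocytes, lies at chromosome 9:123962124-123968692. It had values of 104, 134 and 97.7 in the CX3CR1- libraries and 251, 254 and 173 in the CX3CR1+ libraries. The groups did not overlap, and the mean was 112 ± 19.4 against 226 ± 46.0 (SD, n = 3 each). The log2 difference, -0.997 (SE 0.26, adjusted p = 0.0179, limma), lay just short of the 2-fold limit, so Ccr1 was not called. It was called lower without library Sample_2043 (log2 difference -1.13, adjusted p = 0.0137) and without library Sample_2046 (-1.18, adjusted p = 0.0223), whereas its adjusted p rose to 0.0829 without library Sample_2040, to 0.0914 without library Sample_2044 and to 0.0855 with scaling to pan-leukocyte genes (log2 difference -0.66).

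Ccr9, the receptor for the gut chemokine CCL25, lies at chromosome 9:123678439-123784330. Its values were 100.2, 119 and 97.4 in the CX3CR1- libraries and 77.6, 79.6 and 52.0 in the CX3CR1+ libraries. The CX3CR1- libraries were all higher, by a ratio of 1.51 between means of 105 ± 11.5 and 69.7 ± 15.4 (SD, n = 3 each), but the log2 difference of 0.61 (SE 0.29, adjusted p = 0.158, limma) did not pass the test. Of the 31-base stretches in its GENCODE M21 transcripts, 21.7% also occurred in transcripts of other genes, mainly AC165425.1 (18.2%) and Gm17200 (2.32%), so reads of Ccr9 may be divided between these genes.

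Of the atypical receptors, Ackr4, which takes up CCL19, CCL21 and CCL25, was higher in CX3CR1- cells. It lies at chromosome 9:104084157-104126933 and had values of 113, 46.3 and 164 in the CX3CR1- libraries against 25.7, 8.60 and 8.21 in the CX3CR1+ libraries. The groups were separate even though values within each of them ranged widely. Means of 108 ± 59.1 and 14.2 ± 9.97 (SD, n = 3 each) gave a log2 difference of 2.86 (SE 0.57, adjusted p = 0.00464, limma) and a ratio of 7.62. Exons of Acad11 on the opposite strand overlap Ackr4 and hold 7.92% of its 31-base stretches, and Acad11 was also higher (125 ± 21.5 against 49.8 ± 2.91, SD, n = 3 each; log2 difference 1.30, adjusted p = 0.00603, limma).

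Ackr3, which takes up CXCL12 and so shares a ligand with Cxcr4, lies at chromosome 1:90203980-90216751. Its values were 52.2, 68.0 and 25.9 in the CX3CR1- libraries and 13.4, 10.7 and 4.25 in the CX3CR1+ libraries. All CX3CR1- libraries were higher, and the CX3CR1+ library Sample_2046 was at the level of 3 reads. The log2 difference was 2.27 (SE 0.56, adjusted p = 0.0141, limma), with means of 48.7 ± 21.2 and 9.44 ± 4.70 (SD, n = 3 each) and a ratio of 5.16. Without library Sample_2046 the call was lost, with a log2 difference of 1.83 and an adjusted p of 0.0505. Ackr3 and Cxcr4 thus differed in opposite directions between the groups, and neither shared more than 0.111% of its 31-base stretches with another gene.

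Ackr2, which takes up inflammatory CC chemokines and is known from lymphatic endothelium, lies at chromosome 9:121898355-121911074. It was too low to test: values were 1.96, 9.09 and 5.07 in the CX3CR1- libraries and 0, 1.22 and 0 in the CX3CR1+ libraries. These values correspond to at most about 5.08 reads in any library, so a difference between the groups could not be judged at this depth. Of 5 tested markers of lymphatic endothelium, 4 were called higher in CX3CR1- cells and 1 lower, with summed values of 544–785 against 204–386. Lyve1 made up most of each sum, at 561 ± 117 against 227 ± 78.6 (SD, n = 3 each). The marker called lower was Prox1, at 17.0 ± 5.09 against 72.7 ± 18.1 (log2 difference -2.04, adjusted p = 0.00379, limma). The part of lymphatic endothelium in the values of Ackr2 and Ackr4 was not tested.

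**Figure D2:**
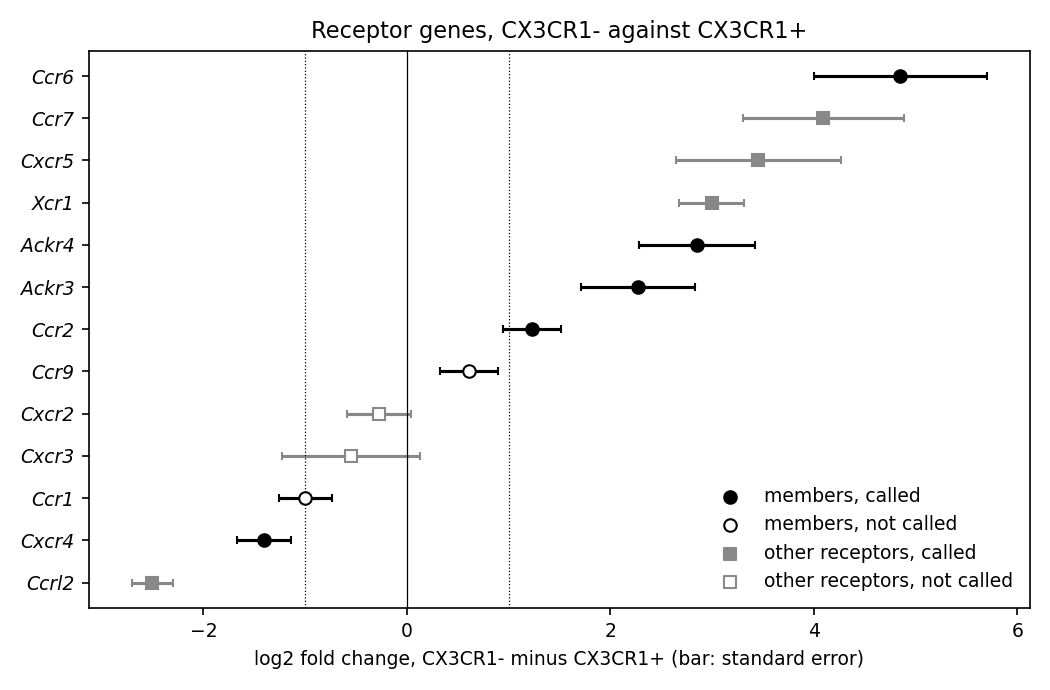
Log2 difference (CX3CR1- minus CX3CR1+) of the tested members (circles) and of other receptors named in the text (squares), with error bars of 1 standard error; filled symbols are genes called by limma. Among the members, Ackr4, Ackr3, Ccr2 and Ccr6 lie to the positive side, Cxcr4 to the negative side, and Ccr1 sits just short of a log2 difference of 1 in size.

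To compare genes with one another, each mean was divided by the median length of the gene's coding transcripts in kilobases, although the isoform expressed in these cells is unknown. On this per-kilobase scale, Ccr2 led in CX3CR1- cells at 575 ± 238, followed by Cxcr4 at 327 ± 98.4 (SD, n = 3 each), and the libraries of these 2 genes overlapped. Next came Ackr4 (48.5 ± 26.6), Ccr1 (39.6 ± 6.84), Ccr9 (35.1 ± 3.83), Ackr3 (28.1 ± 12.2) and Ccr6 (23.7 ± 11.5), whose neighbours in this order did not differ beyond their spread. Cx3cr1 (6.28 ± 1.28) and Ackr2 (3.17 ± 2.11) were lowest.
In CX3CR1+ cells the per-kilobase order was headed by Cxcr4 at 852 ± 199, above Ccr2 at 230.5 ± 18.1 and Cx3cr1 at 97.5 ± 4.67 (SD, n = 3 each), with no overlap between these. Ccr1 followed at 79.7 ± 16.3 and Ccr9 at 23.2 ± 5.13. Ackr4 (6.36 ± 4.48) and Ackr3 (5.44 ± 2.71) overlapped, and Ackr2 (0.240 ± 0.416) and Ccr6 (0) were last. Within every CX3CR1- library Ccr2 was above Cxcr4, and within every CX3CR1+ library Cxcr4 was above Ccr2.

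The CX3CR1- libraries varied more for some members than for others. The coefficient of variation (SD as a percentage of the mean) of Ccr2 was 41.4% in CX3CR1- cells and 7.86% in CX3CR1+ cells, whereas that of Ccr9 was 10.9% and 22.1%. Of the 8 members other than Cx3cr1, library Sample_2043 was the highest CX3CR1- library for 7 and library Sample_2047 the lowest for 6. The leukocyte gene Ptprc, which encodes CD45, had the same order, at 1.02, 1.21 and 0.765 times its CX3CR1- mean in libraries Sample_2041, Sample_2043 and Sample_2047. Ackr4 ran the other way, at 1.05, 0.430 and 1.52 times its mean. The summed fibroblast markers, at 0.920, 0.514 and 1.57 times theirs, had the same order as Ackr4, as did Cx3cr1, at 0.985, 0.804 and 1.21, while the B cell markers, at 0.957, 1.18 and 0.867, did not. With 3 libraries these orders are descriptions, and the part of fibroblast RNA in the Ackr4 difference was not tested.

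**Figure D3:**
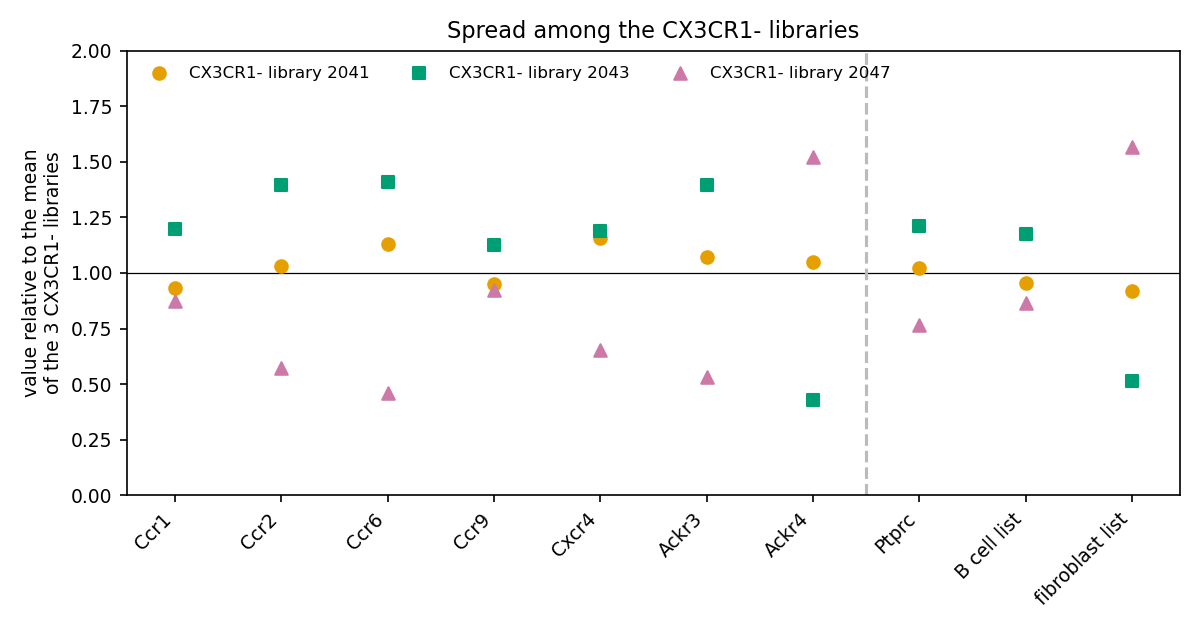
Values of Ccr1, Ccr2, Ccr6, Ccr9, Cxcr4, Ackr3 and Ackr4 in the CX3CR1- libraries Sample_2041, Sample_2043 and Sample_2047, relative to the mean of the 3. Right of the dashed line are Ptprc and the summed B cell and fibroblast markers. Library Sample_2047 is the lowest for all of these members except Ackr4, for which it is the highest (1.52), as it is for the fibroblast markers (1.57).

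Of the 9 members, 6 lie on chromosome 9: Cx3cr1, Ccr1, Ccr2, Ccr9, Ackr2 and Ackr4. Of the 31-base stretches of Ccr2, 3.48% also occurred in transcripts of other genes, and of those of Ccr1 0.642%, so a small part of their reads cannot be assigned by sequence.

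Beyond the members, 15 further chemokine receptors had been listed, of which 13 were in the table used here and 7 were tested. Of the 7, 3 were called higher, 2 lower and 2 were not called, beside 12.2% higher and 8.15% lower calls among all tested genes. Their median log2 difference was -0.27, against -0.00349 over all tested genes. Cxcr5 reached the mean of 10 only through its CX3CR1- values, and without it the median was -0.41. Ccr7, which brings dendritic cells to lymph nodes, was higher in CX3CR1- cells at 237 ± 56.3 against 20.5 ± 17.6 (SD, n = 3 each; log2 difference 4.09, adjusted p = 0.00388, limma). Xcr1, a receptor of cross-presenting dendritic cells, was also higher, at 339 ± 84.0 against 42.3 ± 12.9 (log2 difference 2.99, adjusted p = 9.96e-05), as was Cxcr5, a B cell receptor for follicles, at 66.0 ± 23.6 against 8.60 ± 10.6 (log2 difference 3.45, adjusted p = 0.0111). Of those called lower, Ccrl2, a non-signalling receptor that binds chemerin, stood at 549 ± 71.7 against 3158 ± 736 (log2 difference -2.50, adjusted p = 1.80e-05). Cxcr2 and Cxcr3 did not pass the test, with log2 differences of -0.27 (adjusted p = 0.586) and -0.55 (adjusted p = 0.611).
Xcr1 also stands in the list of conventional dendritic cell markers, and Ccr7, Ccl17 and Ccl22 in that of migratory dendritic cells, so those lists and the present ones are not independent.

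The ligands of the members were compared in the same fit. Of 17 listed, 15 were in the table used here and 14 were tested, of which 7 were called higher in CX3CR1- cells, 5 were called lower and 2 were not called. The shares over all tested genes were 12.2% higher and 8.15% lower. The median log2 difference of the tested ligands was 1.46, beside -0.00349 over all tested genes. It was 1.36 without Ccl17, which reached the mean of 10 only through its CX3CR1- values. The summed value of the CCR2 ligands, Ccl2, Ccl7 and Ccl12, was 1066–2084 in CX3CR1- libraries and 13638–20995 in CX3CR1+ libraries, and each of the 3 was called lower in CX3CR1- cells. Ccl2 had means of 1105 ± 344 and 8242 ± 2036 (SD, n = 3 each; log2 difference -2.92, adjusted p = 2.06e-05, limma), and the log2 differences of Ccl7 and Ccl12 were -4.38 and -5.13. Ccr2 and its ligands thus had their higher level in opposite groups.

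The ligands of CCR1 were divided. Ccl3 was lower in CX3CR1- cells, at 321 ± 177 against 8558 ± 1593 (SD, n = 3 each; log2 difference -4.85), and Ccl4, which was listed with the ligands of ACKR2, was lower at 204 ± 97.9 against 4114 ± 341 (log2 difference -4.45). Ccl5, Ccl6 and Ccl9 were higher in CX3CR1- cells, with log2 differences of 1.56, 1.81 and 1.67 (adjusted p = 0.00850, 2.14e-04 and 0.00135, limma). Ccl17 and Ccl22, chemokines of dendritic cells that ACKR2 also takes up, were higher in CX3CR1- cells as well, with log2 differences of 5.69 and 3.89. For ACKR2, 3 of its 9 tested ligands were called higher and 5 lower.

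Cxcl12, the ligand of both Cxcr4 and Ackr3, had values of 447, 237 and 403 in the CX3CR1- libraries and 95.9, 87.1 and 65.0 in the CX3CR1+ libraries. The groups did not overlap, and the log2 difference was 2.09 (SE 0.30, adjusted p = 6.12e-04, limma). Cxcl12 and Ackr3 were thus higher and Cxcr4 lower in CX3CR1- cells. Cxcl12 is known as a product of fibroblasts. Like Cxcl12, the fibroblast markers were lowest of the CX3CR1- libraries in Sample_2043. The fibroblast markers were highest in Sample_2047, however, and Cxcl12 in Sample_2041. The part of fibroblast RNA in Cxcl12 was not tested.

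Ccl25, the ligand of Ccr9 and Ackr4, had values of 154, 206 and 122 in the CX3CR1- libraries and 39.9, 38.9 and 53.2 in the CX3CR1+ libraries. All CX3CR1- libraries were higher, with a log2 difference of 1.83 (SE 0.30, adjusted p = 0.00156, limma). CCL25 is known as a chemokine of the small bowel epithelium, whose markers were also higher in these libraries, and their part was not tested. Cx3cl1, the ligand of CX3CR1, had values of 13.6, 21.6 and 86.2 in the CX3CR1- libraries and between 9.04 and 13.1 in the CX3CR1+ libraries, a difference that did not pass the test (log2 difference 1.36, adjusted p = 0.169) and that was large in library Sample_2047 alone. Ccl11 did not pass it either (log2 difference 1.11, adjusted p = 0.117), and Ccl19, a ligand of Ackr4, was too low to test, with means of 9.70 ± 10.1 and 0.634 ± 1.10 (SD, n = 3 each).

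**Figure D4:**
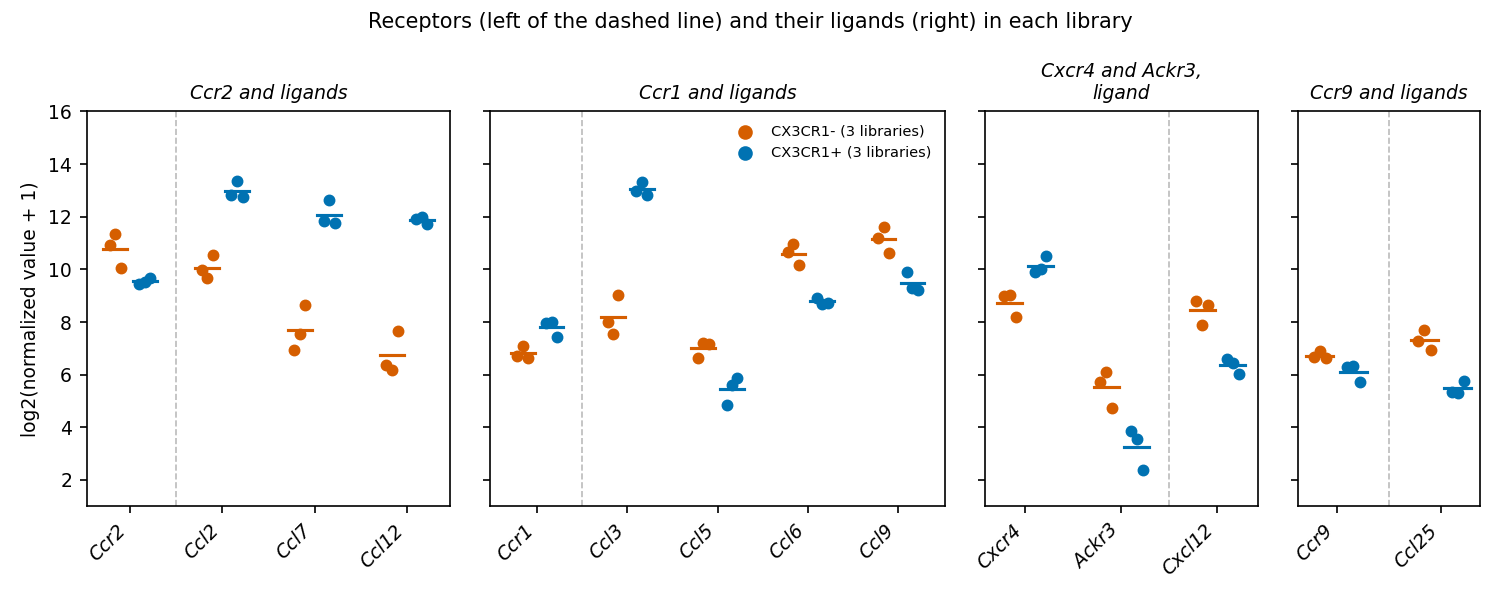
Normalized values per library as log2(value + 1) for receptors (left of the dashed line in each panel) and their ligands (right), with CX3CR1- libraries in orange and CX3CR1+ libraries in blue. Ccr2 is higher in CX3CR1- libraries and its ligands Ccl2, Ccl7 and Ccl12 are higher in CX3CR1+ libraries, whereas Cxcl12 is higher where Ackr3 is higher and Cxcr4 lower.

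A list of 32 tested genes held G-protein subunits, regulators of G-protein signalling, arrestins, kinases and other effectors of chemokine receptors, and also the ubiquitin ligase gene Itch and the sheddase genes Adam10 and Adam17. Of these 32, 4 were called higher in CX3CR1- cells, 8 lower, Adam17 among them, and 20 were not called. Beside the 12.2% higher and 8.15% lower calls among all tested genes, the higher calls were near the background. The lower calls numbered 5, as did the higher calls, with scaling to pan-leukocyte genes. The median log2 difference was -0.33, or -0.36 without Rgs16, beside -0.00349 over all tested genes. Arrb2, the arrestin that binds activated receptors and carries them inward, was lower at 301 ± 77.9 against 1308 ± 39.2 (SD, n = 3 each; log2 difference -2.15, adjusted p = 6.97e-05, limma), while its relative Arrb1 had a log2 difference of 0.00 (adjusted p = 0.995). Rgs1, which shortens G-protein signals, was lower at 940 ± 46.4 against 3363 ± 677 (log2 difference -1.82, adjusted p = 6.35e-05), and Rgs16, of the same family, was higher at 70.8 ± 19.4 against 2.54 ± 0.268 (adjusted p = 1.49e-04). The CX3CR1+ values of Rgs16, 2.31, 2.46 and 2.83, lay near the level of 3 reads, so the gene was tested only through its CX3CR1- values and its fitted log2 difference, 4.31, depends on the pseudocount. The G-protein subunit gene Gng2 was lower (log2 difference -1.50, adjusted p = 2.07e-04), and the kinase gene Jak2 was higher (log2 difference 1.55, adjusted p = 2.20e-04).

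**Figure D5:**
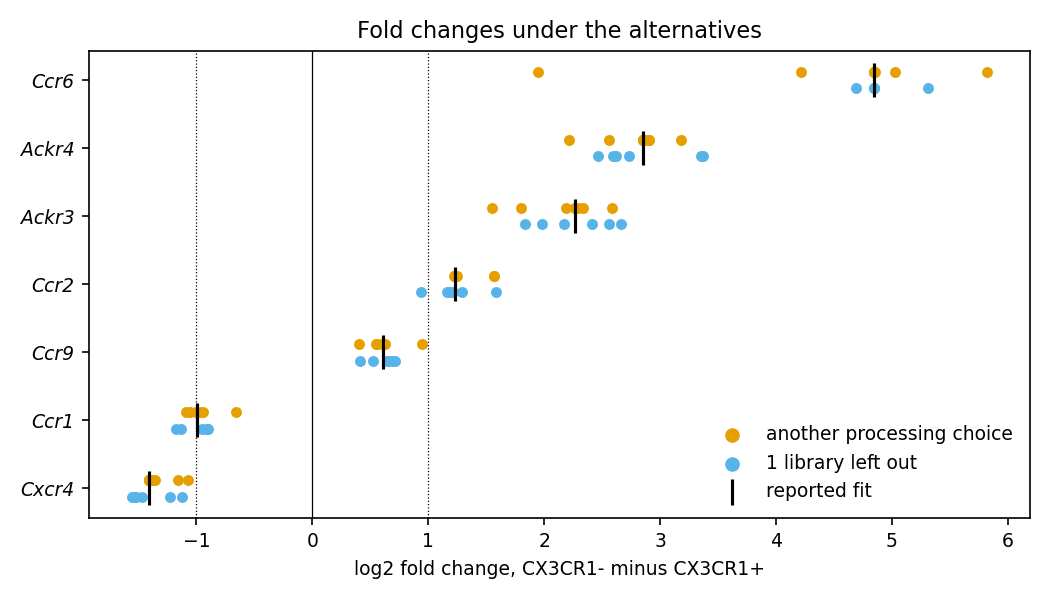
Log2 difference (CX3CR1- minus CX3CR1+) of each tested member in the reported fit (black tick), under other processing choices (orange) and with 1 library left out (blue); dotted lines mark 2-fold. No member changes sign: Ccr1 ranges from -1.18 to -0.66 and Ccr2 from 0.94 to 1.59.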

How the data were processed

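RNA from MHCII hi cells sorted by the CX3CR1 reporter was sequenced in 6 libraries, 3 per group. The authors pseudoaligned reads with kallisto to the GENCODE vM16 transcripts (mm10), summed estimates per gene with tximport and normalized them with DESeq2; the kallisto and tximport versions are not given in the sources used here. The deposited values are this normalized expression signal per gene. Because 42.5–44.4% of values were whole multiples of 1 read (tolerance 0.01 of a read), they are not whole counts and no count test was run. Read numbers given here are approximations from that step and cover counting error only.

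The signal was tested as log2(value + 1) in genes with a mean of at least 10 with limma 3.58.1 in R 4.3.3 (empirical Bayes with an intensity trend), CX3CR1- minus CX3CR1+, with Benjamini-Hochberg adjustment over all 17812 genes. A fold change on this scale understates the change of low genes. The fit was tested on simulated data with known changes. Adjusted p-values given without a tool are from this fit.

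The members and lists were chosen with earlier results of these data known. Genes named were the 9 members, listed receptors and ligands, and the 5 signalling genes with the smallest adjusted p. Ptprc, Acad11, Arrb1, Itch, Adam10, Adam17, Lyve1 and Prox1 were added after their values were seen. The values of 1 listed receptor and 1 marker gene are not reported here. Positions, transcript lengths, codons and shared 31-base stretches are from GENCODE M21 (GRCm38), which differs from the release the authors used. Alternatives were other pseudocounts, filters, scalings and variance settings, a replicate block, and leaving out each library.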

Additional observations from a re-analysis of the deposited data

How the results depend on the processing

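No member reversed its direction under any alternative run, and 102 of 109 alternative log2 differences stayed on the same side of the call. Without a variance trend Ccr2 lost its call (adjusted p = 0.0598). Requiring a mean of at least 50 left 2 members called higher in CX3CR1- cells in place of 4, because Ccr6 and Ackr3 were then not tested, and gave 1232 higher and 1181 lower calls over all genes in place of 2177 and 1451. Quantile normalization and library quality weights each gave 2 members called lower in place of 1, as Ccr1 joined Cxcr4 (log2 difference -1.09 and -1.05). With 1 library left out, the members called higher numbered 2 to 4 and those called lower 1 to 2. Scaling to 8 pan-leukocyte genes left 5 signalling genes called lower in place of 8 and moved the median log2 difference of all genes to 0.34, with 77.8% of calls higher in place of 60.0%; Ccr9 then had its smallest adjusted p, 0.0397, without reaching 2-fold. Quantile normalization moved that median to -0.15. Ccr6 ranged from 1.95 with a pseudocount of 10 to 5.82 with 0.5. Taking adjacent library numbers as a replicate block, which the labels do not state, changed no member call (4 higher, 1 lower), and the paired deviations correlated at 0.104, 0.0380 and 0.0142. Without a filter Ackr2 had a log2 difference of 2.12 (adjusted p = 0.111). Depth limits Ackr2 and Ccr6, which were under 3 reads in every CX3CR1+ library, and Ackr3 in 1 of them.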

Other observations

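Further cell type markers that bear on where chemokine receptors are usually found were read in the same fit. All 7 tested markers of migratory dendritic cells were called higher in CX3CR1- cells, with summed values of 2098–2592 against 196–218. Of the tested markers of plasma cells 3 of 6 were called higher, of blood endothelium 4 of 5 and of glia 4 of 5. None of 6 smooth muscle markers was called. Of 5 tested markers of plasmacytoid dendritic cells, 2 were called higher and 2 lower. Among 3 T cell markers, 1 was called higher and 1 lower, and among 3 neutrophil markers 1 was called lower. All tested markers of innate lymphoid and natural killer cells (2 of 7 listed), eosinophils (2 of 6) and mast cells (1 of 7) were called higher. The other listed markers of these cell types were absent from the table used here or too low to test. These calls therefore cannot tell whether such cells were present. The shares over all tested genes were 12.2% higher and 8.15% lower.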
